A study of Ictidomys tridecemlineatus with 31 samples.

Results

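The genes described here encode 10 enzymes and enzyme subunits that break down the branched-chain amino acids leucine, isoleucine and valine. They were taken by name from the expression table of ground squirrel kidneys, and all 10 (Bcat1, Bcat2, Bckdha, Bckdhb, Dbt, Ivd, Mccc1, Acadsb, Hibadh and Pcca) were found among its 12863 genes. Hibadh had a second row, named by similarity to the human gene and with a lower mean, which was not used.

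RNA-Seq was performed on kidneys of 13-lined ground squirrels (Ictidomys tridecemlineatus), a hibernator, and the table holds 31 animals. SA (summer active) and SpD (spring dark) animals were homeothermic, the former fattening in summer and the latter still housed in the dark hibernaculum after their last torpor bout. The other 4 states were taken during hibernation by body temperature. EAr animals were at the start of arousal from torpor, LAr animals were further into rewarming, IBA animals had rewarmed within the past few hours, and Ent animals were cooling into the next bout. No genetic change or drug separates the groups, animals of both sexes were used (16 females and 13 males among the 29 analysed), and each sample is a fragment of 1 kidney from 1 animal cleared of blood by perfusion. Differences are for 29 animals, 4 of SA and 5 of every other state, because the study left K113 (LAr) and K137 (SA) out of its own tests, and those 2 animals are shown apart.

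Breakdown of all 3 amino acids starts alike. A branched-chain aminotransferase removes the amino group, the branched-chain ketoacid dehydrogenase (BCKDH) complex of the mitochondrion then commits the carbon skeleton to oxidation, and a separate chain of enzymes takes over for each amino acid. In the kidney, proximal tubule cells take up filtered amino acids and are rich in mitochondria.

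Values are regularized log (rlog) values on the log2 scale, with the difference between 2 library kits removed by the authors, so that a difference of 1 is a doubling. rlog shrinks differences of weakly expressed genes. The levels are not per transcript length and are compared only between animals for the same gene. Counts are not in the table, so depth is unknown. The animals were on 1 scale, with medians of all their genes from 9.74 to 9.88. A state difference is the fitted one of a limma model with state, sex and experiment (library kit), and q is its p after Benjamini-Hochberg adjustment over all 12863 genes, called at q under 0.001. Since the model corrects for sex and experiment, a fitted difference is not exactly the difference of 2 group means.

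The kidney label was checked against marker genes. All 12 proximal tubule markers were in the table, with a mean level of 14.98 ± 0.15 (SD, n = 4) in SA, and so were markers of the loop of Henle, distal convoluted tubule, collecting duct, endothelium, fibroblasts and macrophages. Slc14a2, a urea transporter of the inner medulla, varied widely between fragments, from 6.11 to 12.99 among the 29 animals. In pieces of tissue such as these, fewer cells of a type and less RNA per cell cannot be told apart. 1 further animal, K130 (SpD), stood apart from its group in many of the 10 genes. It was kept, and values without it are given where they differ.

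Across the 6 states, 7 of the 10 genes passed the test (Bcat2, Bckdhb, Dbt, Ivd, Mccc1, Acadsb and Pcca), against 9.34% of all genes. At a looser q under 0.05 the count was 9, against 46.1% of all genes, and Bcat1 was the exception. SA had the highest mean in 7 of the 10 and IBA the lowest in 8 of the 10. When the mean of the 4 hibernation states was set against the mean of SA and SpD, 6 genes were lower in hibernation (5.29% of all genes were), none was higher (4.43% of all genes were), and the median difference over the 10 was -0.35, compared with 0.00 over all genes. At q under 0.05, 8 genes were lower, against 16.8% of all genes. Ivd differed most between seasons, and in the 7 genes other than Bcat1, Bcat2 and Bckdha the state means were highest in SA and lowest in IBA. When the states were ordered by their means, neighbouring states overlapped for every gene, apart from SA and SpD for Ivd and SA and LAr for Mccc1.

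**Figure D1:**
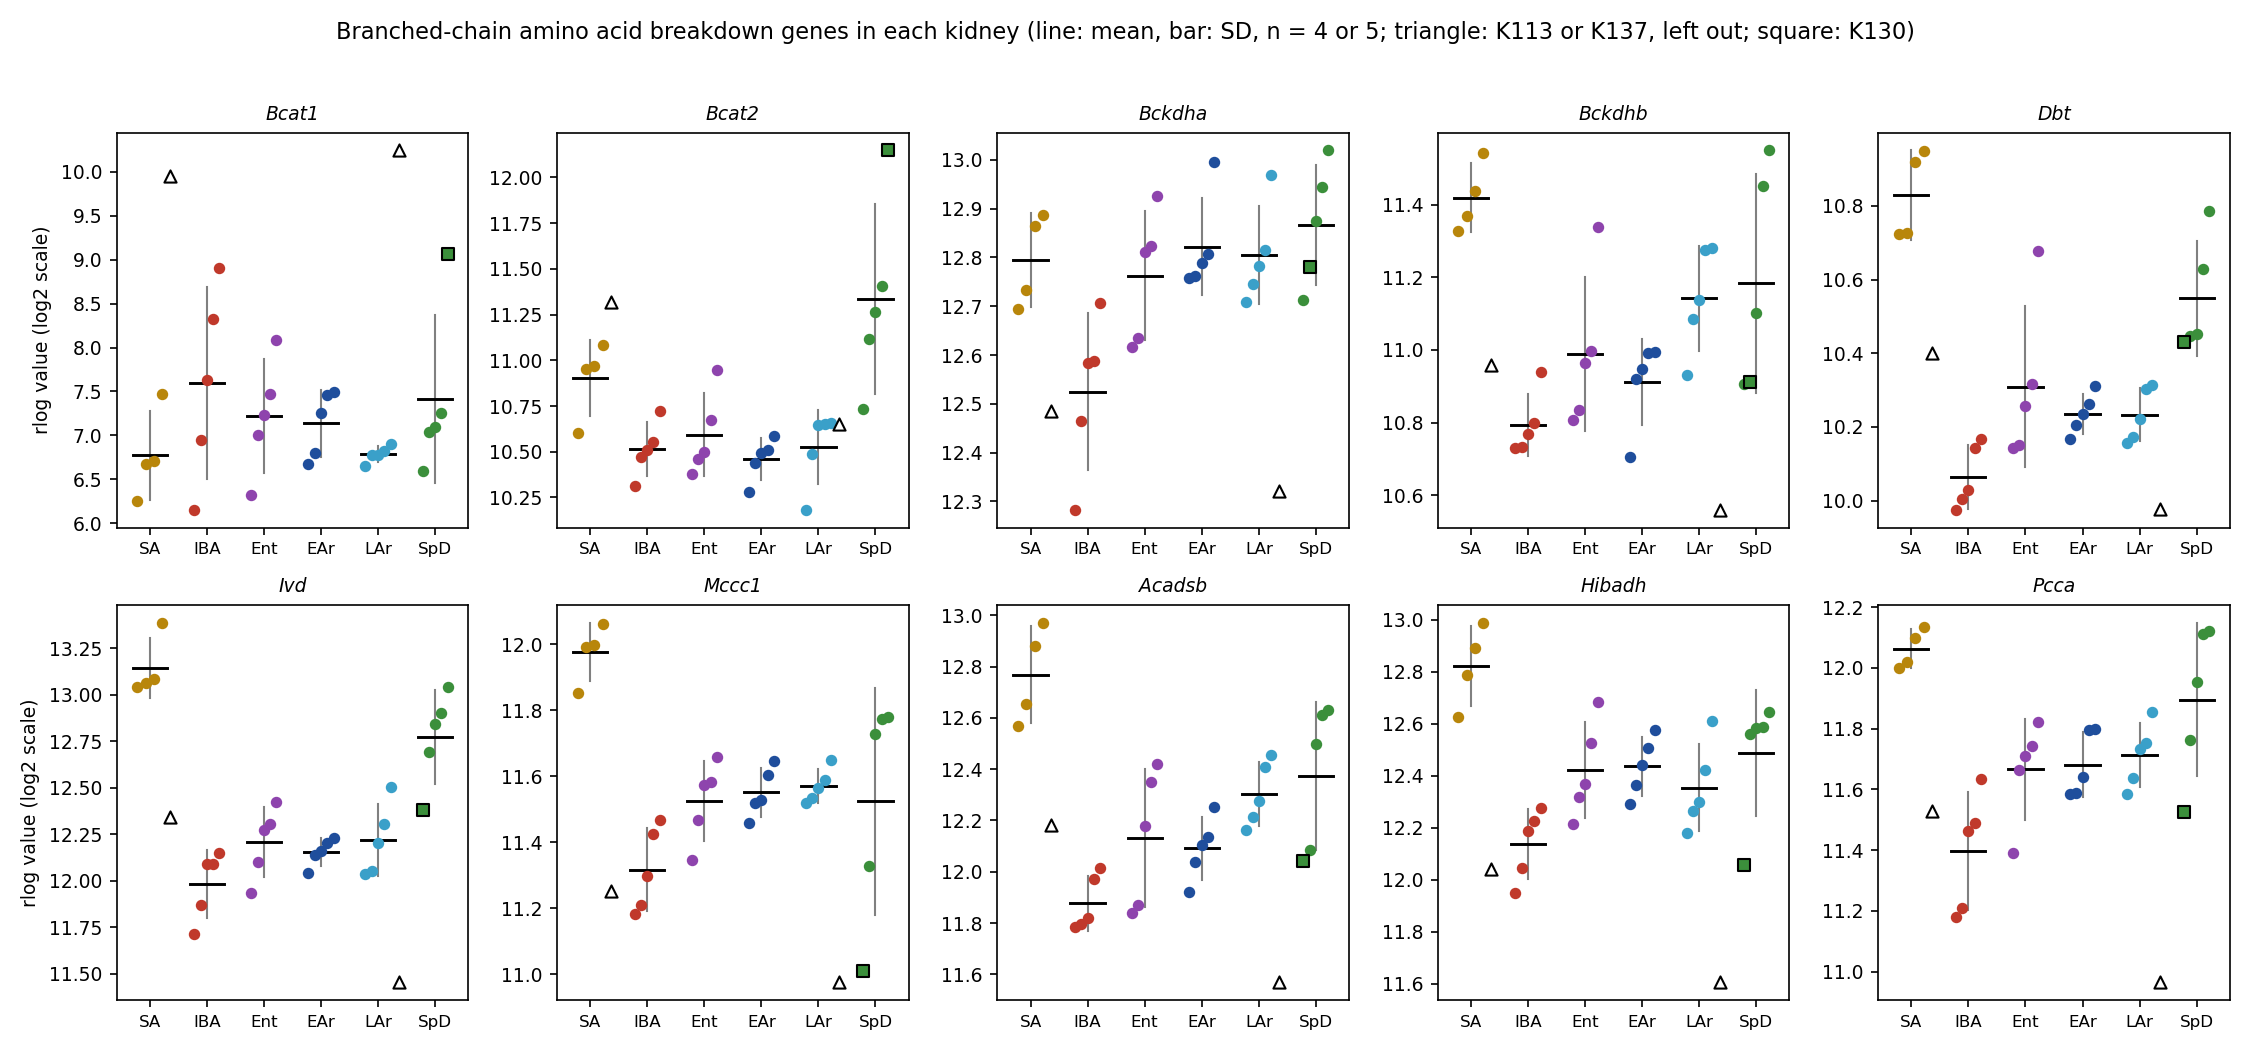
Level of each of the 10 genes in every kidney (vertical axis, rlog value on the log2 scale, with its own range in each panel) by state (horizontal axis). Points are animals, lines are group means and bars are SD. Open triangles are K113 and K137, which were left out of means and tests, and the square is K130. In 7 panels SA is the highest group, with Ivd between 13.04 and 13.39, and both triangles lie far above their groups for Bcat1.

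The aminotransferases came first in the pathway and were the least alike. Bcat1, the cytosolic enzyme, was read in SA at 6.25, 6.67, 6.71 and 7.47. In IBA it was 6.15, 6.95, 7.63, 8.33 and 8.91, a range that takes in every value of the other hibernation groups. LAr was narrow, at 6.65, 6.77, 6.78, 6.82 and 6.90. No state separated from another for Bcat1, which had the widest residual SD of the 10 genes (0.73, against a median of 0.16 over all genes), and the test across states gave q = 0.54. Its fitted difference between IBA and SA was 0.88 ± 0.51 (SE, q = 0.22), with a 95% interval from -0.18 to 1.95, which includes 0. The 3 highest values of Bcat1 in the table belonged to animals that stood apart, at 10.24 in K113, 9.95 in K137 and 9.06 in K130. The next, 8.91, was that of K104 (IBA). K104 had the highest Slc14a2 of its state (12.24) and the lowest proximal tubule marker mean (13.73). In the 5 analysed LAr animals Slc14a2 ran from 6.31 to 6.91. The part of the sampled region in the Bcat1 ranges was not tested.

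Bcat2, the mitochondrial aminotransferase, was highest in SpD. The 5 SpD animals were at 10.73, 11.12, 11.26, 11.40 and 12.15, the last being K130. The SA animals were at 10.60, 10.95, 10.97 and 11.09, and the IBA animals at 10.31, 10.47, 10.51, 10.56 and 10.72. All SpD animals thus lay above all IBA animals, the nearest being at 10.73 and 10.72, and SA overlapped both. The other hibernation groups overlapped IBA, from 10.38 to 10.95 in Ent, 10.28 to 10.59 in EAr and 10.18 to 10.65 in LAr. The difference between the hibernation states and the active states was -0.60 ± 0.10 (q = 1.5e-04), and without K130 it was -0.48 (q = 7.7e-05). SpD exceeded IBA by 0.82 ± 0.16 (q = 0.0022), or 0.60 without K130 (q = 0.0032), neither of which passed at 0.001. In its order of states (SpD, SA, Ent, LAr, IBA, EAr), no neighbouring pair separated without overlap. The test across states (q = 8.5e-04) was close to the threshold and was lost in 27 of 41 alternative settings.

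The BCKDH complex is built of E1, which is a pair of alpha and beta subunits (Bckdha and Bckdhb) that decarboxylates the ketoacids, the E2 transacylase core (Dbt), and an E3 subunit (Dld) that is shared with other dehydrogenases. The 2 subunits of E1 did not pass in the same comparisons, and the difference between them was not tested. Bckdha had state means between 12.53 in IBA and 12.87 in SpD. It was not called across states (q = 0.014) or between the seasons (-0.10 ± 0.05, q = 0.13). Its lowest group was IBA, at 12.28, 12.46, 12.58, 12.59 and 12.71, which overlapped the SA values of 12.69, 12.73, 12.87 and 12.89 by 1 animal. Bckdhb was lower by 0.34 in hibernation (-0.34 ± 0.06, q = 2.1e-04). It was 11.33, 11.37, 11.44 and 11.54 in SA and 10.73, 10.73, 10.77, 10.80 and 10.94 in IBA, with no overlap. Bckdhb in LAr, from 10.93 to 11.28, lay for the most part between these groups. Both subunits had their lowest mean in IBA. They were lower there than in LAr at q under 0.05, by -0.31 for Bckdha and -0.44 for Bckdhb.

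Dbt was the most clearly changed subunit of the complex. It was 10.72, 10.73, 10.92 and 10.95 in SA. It was 9.98, 10.00, 10.03, 10.14 and 10.17 in IBA. It was 10.43, 10.45, 10.45, 10.63 and 10.79 in SpD. IBA lay below both active groups with no overlap, and the Ent (10.14 to 10.68), EAr (10.17 to 10.31) and LAr (10.16 to 10.31) animals started just inside the top of the IBA range. The fall from SA to IBA was -0.83 ± 0.09 (q = 6.1e-06, 1.78-fold), which placed Dbt at rank 11 of 12863 genes by p in that comparison, and the season difference was -0.48 ± 0.05 (q = 4.4e-07). Both the test across states and the season difference held in all 41 alternative settings.

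In the leucine chain, Ivd (isovaleryl-CoA dehydrogenase, which acts directly after BCKDH) had the largest difference of the 10 genes. It was 13.04, 13.06, 13.09 and 13.39 in SA. It was 11.72, 11.87, 12.09, 12.09 and 12.15 in IBA. It was 12.38, 12.69, 12.85, 12.90 and 13.04 in SpD, where K130 was the lowest. Every SA animal was above every animal of the other states, although the highest SpD animal equalled the lowest SA animal at the second decimal, and SpD in turn was above every IBA animal. Ent was 11.94, 12.10, 12.27, 12.31 and 12.42, EAr was 12.04, 12.14, 12.16, 12.20 and 12.23, and LAr was 12.04, 12.05, 12.20, 12.31 and 12.50. These 3 groups overlapped each other and IBA throughout. Ivd was lower in IBA than in SA by 2.34-fold (-1.23 ± 0.13, q = 3.4e-06), and the season difference was -0.82 ± 0.07 (q = 3.8e-08). By the test across states (q = 7.4e-07) it ranked 52 of 12863 genes.

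Mccc1, the biotin-bearing subunit of methylcrotonyl-CoA carboxylase which acts directly after Ivd, set SA apart from all other groups. SA was at 11.85, 11.99, 12.00 and 12.06, and no animal of another state exceeded the 11.78 of SpD. IBA was at 11.18, 11.21, 11.30, 11.42 and 11.47. SpD was split, at 11.01 in K130, 11.33, 11.73, 11.77 and 11.78, so that its lowest values lay in and below the IBA range. Mccc1 fell from SA to IBA (-0.78 ± 0.11, q = 5.9e-05) and passed across states (q = 5.1e-04), while the difference between seasons, -0.26 ± 0.06, did not pass at 0.001 (q = 0.0023). It passed without K130, at -0.32 (q = 4.1e-05).

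In the isoleucine chain, Acadsb (short/branched-chain acyl-CoA dehydrogenase) was at 12.57, 12.65, 12.88 and 12.97 in SA. In IBA it was at 11.79, 11.79, 11.82, 11.97 and 12.01. In SpD it was at 12.04, 12.08, 12.50, 12.61 and 12.63. IBA was below SA and, by a narrow margin, below SpD. The LAr animals, from 12.16 to 12.45, were also all above the IBA animals. The IBA to SA difference was -1.01 ± 0.13 (q = 2.0e-05), a 2.02-fold fall and the second largest of the 10, and the season difference was -0.47 ± 0.07 (q = 3.0e-05).

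In the valine chain, Hibadh (3-hydroxyisobutyrate dehydrogenase) was at 12.63, 12.79, 12.89 and 12.99 in SA and at 11.95, 12.04, 12.19, 12.23 and 12.28 in IBA. The groups did not overlap, and the fall was -0.75 ± 0.13 (q = 2.5e-04). Across states (q = 0.0017) and between seasons (-0.32 ± 0.07, q = 0.0011) Hibadh just missed the threshold. In SpD 4 animals lay between 12.56 and 12.65 and K130 at 12.06, and without K130 the season difference passed (-0.37, q = 6.9e-05).

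Isoleucine and valine both give propionyl-CoA, which propionyl-CoA carboxylase feeds to the citric acid cycle. Its alpha subunit gene, Pcca, was at 12.00, 12.02, 12.10 and 12.13 in SA and at 11.18, 11.21, 11.46, 11.49 and 11.64 in IBA, with no overlap. SpD was wider, at 11.53, 11.76, 11.95, 12.11 and 12.12, and its upper animals reached the SA range. Pcca fell from SA to IBA by 1.66-fold (-0.73 ± 0.12, q = 1.9e-04) and was lower in hibernation (-0.37 ± 0.07, q = 1.7e-04). Its test across states (q = 6.8e-04) was lost in 20 of 41 alternative settings.

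The comparison of IBA with SA asks what differs between 2 warm states, one within hibernation and one in summer. The 7 genes called were Bckdhb, Dbt, Ivd, Mccc1, Acadsb, Hibadh and Pcca. All were lower in IBA, against 2.46% of all genes called lower, and the same 7 were those whose groups did not overlap, against 18.8% of all genes. At q under 0.05 Bckdha (-0.31 ± 0.09, q = 0.021) made it 8, against 12.5% of all genes. The median difference over the 10 genes was -0.74, and 0.03 over all genes.

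The proximal tubule markers moved the same way in this comparison. Their mean level was 14.18 ± 0.38 (SD, n = 5) in IBA, from 13.73 to 14.49, and in SA it ran from 14.81 to 15.15. All 12 markers were lower in IBA, with a median difference of -0.89, of which 0 passed at 0.001 by limma and 8 had an unadjusted p under 0.05, the same number as at q under 0.05. With the marker mean as a further term in the model, all 10 genes were lower in IBA with a median of -0.57, but only Dbt (-0.84, q = 2.3e-04) and Ivd (-0.95, q = 2.9e-04) passed at 0.001, and 8 passed at 0.05. Pcca moved most among the 7 genes called (-0.34, q = 0.0051). Beyond this term, the part of tissue composition in the difference was not tested.

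**Figure D2:**
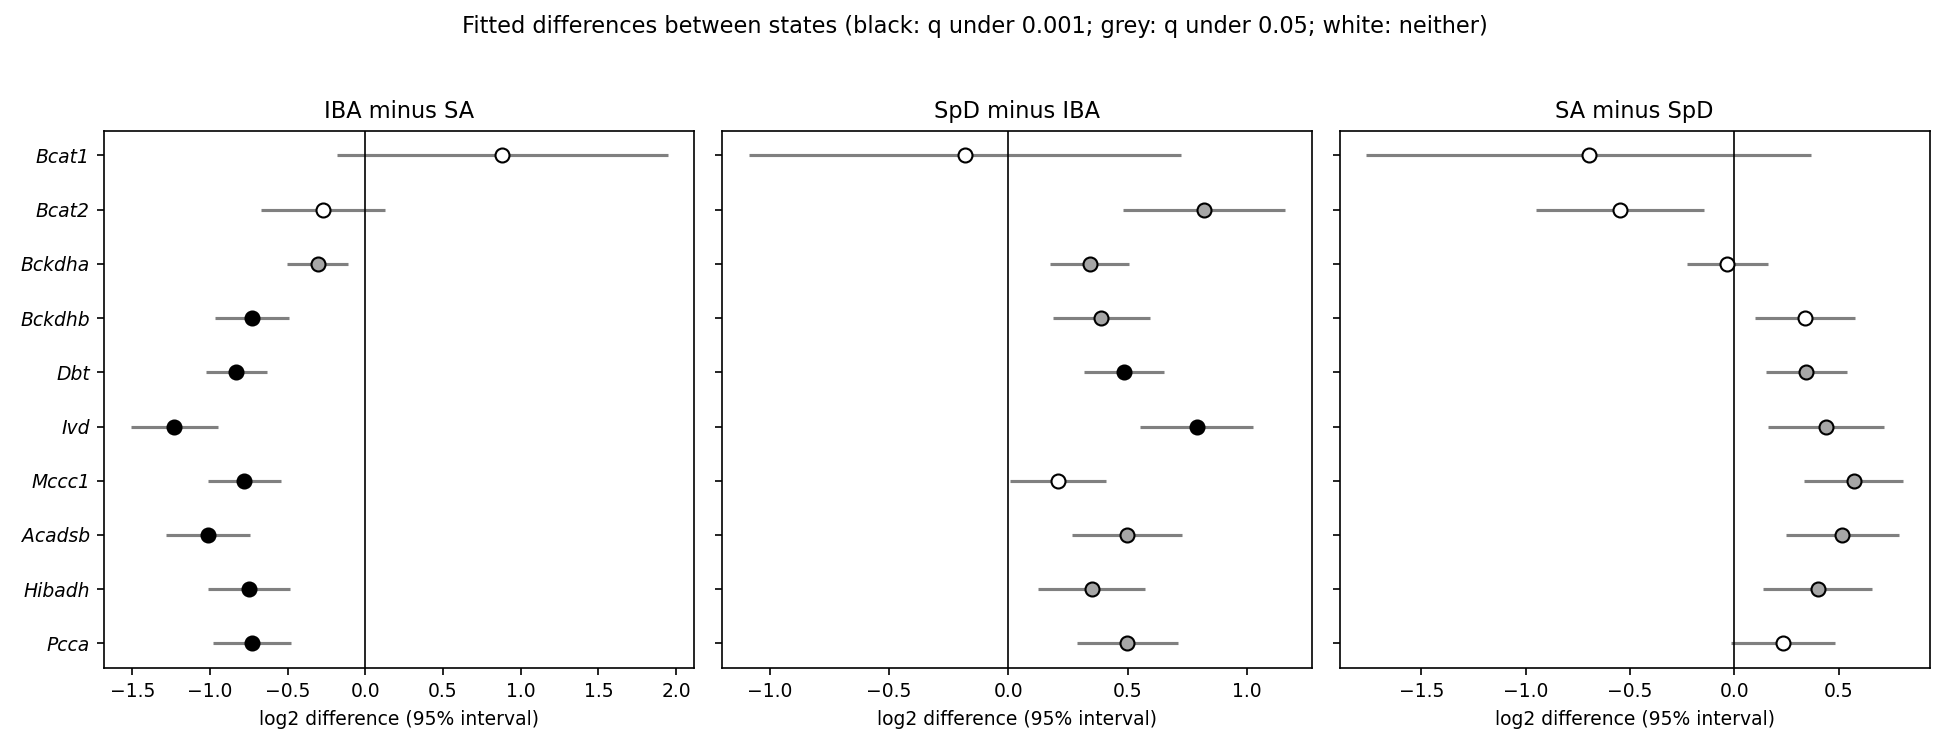
Fitted log2 differences (horizontal axis) of the 10 genes (vertical axis) in 3 comparisons, with 95% intervals. Black points passed at q under 0.001, grey at q under 0.05 and white at neither. IBA minus SA is negative for every gene but Bcat1 and reaches -1.23 for Ivd, SpD minus IBA is positive for every gene but Bcat1, and the panels share animals and so are not independent.

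SpD and IBA compare the animals after the last torpor bout with those between bouts. Ivd (0.79 ± 0.11, q = 1.1e-04) and Dbt (0.48 ± 0.08, q = 4.5e-04) were higher in SpD, 2 of 10 against 0.832% of all genes. At q under 0.05 the count was 8, all higher in SpD, against 6.48% of all genes, which added Bcat2, Bckdha (0.34), Bckdhb (0.39), Acadsb (0.50), Hibadh (0.35) and Pcca (0.50). Mccc1 was higher by 0.21 ± 0.10 (q = 0.17) and Bcat1 lower by 0.18 (-0.18 ± 0.43, q = 0.83). Without K130, 3 genes passed at 0.001 (Ivd, Dbt and Pcca) and 9 at 0.05, with Mccc1 at 0.33 (q = 0.0078) and Bcat1 at -0.70 (q = 0.23). The groups did not overlap for 5 genes (Bcat2, Bckdha, Dbt, Ivd and Acadsb), against 6.51% of all genes. Markers of several cell types were higher in SpD as well, and those of others were level or lower. Of the 12 proximal tubule markers 8 were higher, with a median of 0.14 and 1 passing at 0.05, and their mean level was 0.24 higher in SpD, or 0.52 higher without K130. The loop of Henle level was 15.75 ± 0.54 (SD, n = 5) in SpD and 14.94 ± 0.50 (n = 5) in IBA, and the collecting duct principal cell level was 14.09 ± 0.23 and 13.63 ± 0.42. The part of the loop and duct markers in the gene differences was not tested. With the proximal tubule mean as a term, Bcat2 (0.92, q = 1.3e-04), Dbt (0.49, q = 3.4e-04), Ivd (0.72, q = 3.6e-05) and Pcca (0.41, q = 2.7e-05) passed at 0.001.

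IBA, Ent and SpD were sequenced in both experiments, so SpD and IBA could also be set against each other within each kit. In experiment 1, with 3 animals against 3, Ivd was higher in SpD by 0.88, Dbt by 0.57, Bcat2 by 0.64, Acadsb by 0.66 and Mccc1 by 0.46. In experiment 2, with 2 against 2 and K130 among them, the differences were 0.66 for Ivd, 0.35 for Dbt, 1.09 for Bcat2, 0.26 for Acadsb and -0.17 for Mccc1. Ivd, Dbt, Bcat2 and Acadsb thus kept their direction in both, and Mccc1 did not. Bcat1 also turned, from -0.72 to 0.63. SA, EAr and LAr were prepared with 1 kit only, so their part of any comparison rests on experiment 2 and on the correction between kits. In experiment 2 alone, Dbt (-0.74, q = 1.6e-04), Ivd (-1.19, q = 6.3e-04) and Acadsb (-0.91, q = 6.3e-04) passed between IBA and SA, and none of the 10 passed between SpD and IBA.

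The 2 active states were not alike for these genes at the looser threshold. At q under 0.001 none of the 10 differed by limma between SA and SpD, against 0.0544% of all genes. An unadjusted p under 0.05 was reached by 7 of the 10, and by 3741 of all 12863 genes. At q under 0.05, 5 were higher in SA, against 5.47% of all genes, namely Mccc1 (0.57 ± 0.11, q = 0.0058), Acadsb (0.52 ± 0.13, q = 0.017), Dbt (0.35), Hibadh (0.40) and Ivd (0.44). Without K130 none of the 10 reached q under 0.05, and Mccc1 was then 0.38 higher (q = 0.066). Proximal tubule markers were higher in SA as well in 11 of 12 cases (median 0.79), and ranged in SpD from 13.28 in K130 to 14.96. With the proximal tubule mean as a term, the median over the 10 genes was 0.25, beside 0.34 without it. With this term only 1 gene passed at q under 0.05.

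Over the 4 hibernation states alone, none of the 10 genes passed at 0.001 by limma (1.83% of all genes did). An unadjusted p under 0.05 was reached by 7 of the 10, and by 4181 of all 12863 genes. At q under 0.05, 3 passed (Bckdha, Bckdhb and Acadsb), against 16.1% of all genes. Between IBA and LAr none passed at 0.001 (1.43% of all genes did). By limma, 8 had an unadjusted p under 0.05, as did 4299 of all 12863 genes. At q under 0.05, 5 were lower in IBA, against 8.03% of all genes. They were Acadsb (-0.56 ± 0.12, q = 0.0042), Bckdhb (-0.44 ± 0.11, q = 0.0086), Bckdha (-0.31), Mccc1 (-0.37) and Pcca (-0.38). Tubule markers were lower in IBA in 11 of 12 cases (median -0.54), with 1 of 12 passing at 0.05. With the proximal tubule mean as a term, the median over the 10 genes was -0.20, beside -0.31 without it. With this term 2 genes passed at q under 0.05. The inner medulla marker Slc14a2 ran from 6.31 to 6.91 in LAr and from 6.67 to 12.24 in IBA, and its part was not tested.

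From IBA to Ent, as body temperature fell, 9 of the 10 genes were higher with a median of 0.23. None passed at 0.001 by limma, against 0.746% of all genes. An unadjusted p under 0.05 was reached by 6 of the 10, and by 3778 of all 12863 genes. Dbt (0.24 ± 0.08, q = 0.045) and Bckdha (0.24 ± 0.08, q = 0.0499) passed at q under 0.05, against 5.52% of all genes higher. In experiment 1 these 2 differed by 0.31 and 0.30, and in experiment 2 by 0.15 and 0.14. Beside this, 12 of 12 proximal tubule markers were higher in Ent with a median of 0.23, although none had an unadjusted p under 0.05 by limma. With the proximal tubule mean as a term, 9 of the 10 genes were higher with a median of 0.18. Of these, 0 passed at 0.001 and 3 at 0.05. Beyond this term, the part of tissue composition was not tested.

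From entrance to early arousal, which spans the torpor bout, and from early to later arousal, no difference was detectable. Between Ent and EAr no gene of the 10 passed even at 0.05 (0.257% of all genes did), none had an unadjusted p under 0.05 by limma, and the differences ran from -0.24 for Bcat2 to 0.15 for Mccc1. Between EAr and LAr none passed at 0.05 either (0.575% of all genes did) and none had an unadjusted p under 0.05. Acadsb (0.23 ± 0.11, q = 0.61) and Bckdhb (0.20 ± 0.10, q = 0.61) were the largest positive differences there, with 95% intervals from -0.0067 to 0.46 and from -0.0041 to 0.41. For Dbt, the interval from -0.18 to 0.15 bounds the change between these states more tightly.

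By sex, none of the 10 passed at 0.001 by limma (0.0233% of all genes did). The only unadjusted p under 0.05 was that of Bckdhb (-0.15 ± 0.06 in males, q = 0.69).

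Over the 29 animals, the genes other than Bcat1 and Bcat2 varied together. Pearson's r between pairs of these 8 genes ran from 0.40 (Bckdha with Dbt) to 0.89 (Dbt with Ivd), with a median of 0.77 over 28 pairs. Bcat1 was negatively correlated with all 8, from -0.61 with Mccc1 to -0.15 with Dbt. Bcat2 correlated with them between -0.05 and 0.52, and with Bcat1 at 0.41. These points share animals, states and tissue composition, so that the coefficients are descriptions.

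K113, K137 and K130 each combined high Bcat1 with low values in most downstream genes, though not in exactly the same genes. K113 lay below every other LAr animal in 8 of the 10 genes and K137 below every other SA animal in 8, among them Ivd at 11.45 in K113 against 12.04 to 12.50, and at 12.34 in K137 against 13.04 to 13.39. K130 lay below every other SpD animal in 6. All 3 were above their groups for Bcat1, and K137 (11.32) and K130 (12.15) for Bcat2 as well. Beside this, the proximal tubule marker mean was 13.53 in K113, 13.90 in K137 and 13.28 in K130, which was below the other animals of their states, and the inner medulla marker Slc14a2 was 12.87, 13.51 and 12.99, each above the rest of its state. The part of the sampled region in these values was not tested. With K113 and K137 put back, only Dbt passed between IBA and SA at 0.001 (-0.74, q = 2.4e-04) and none between SpD and IBA, and 7 and 6 passed at 0.05.

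**Figure D3:**
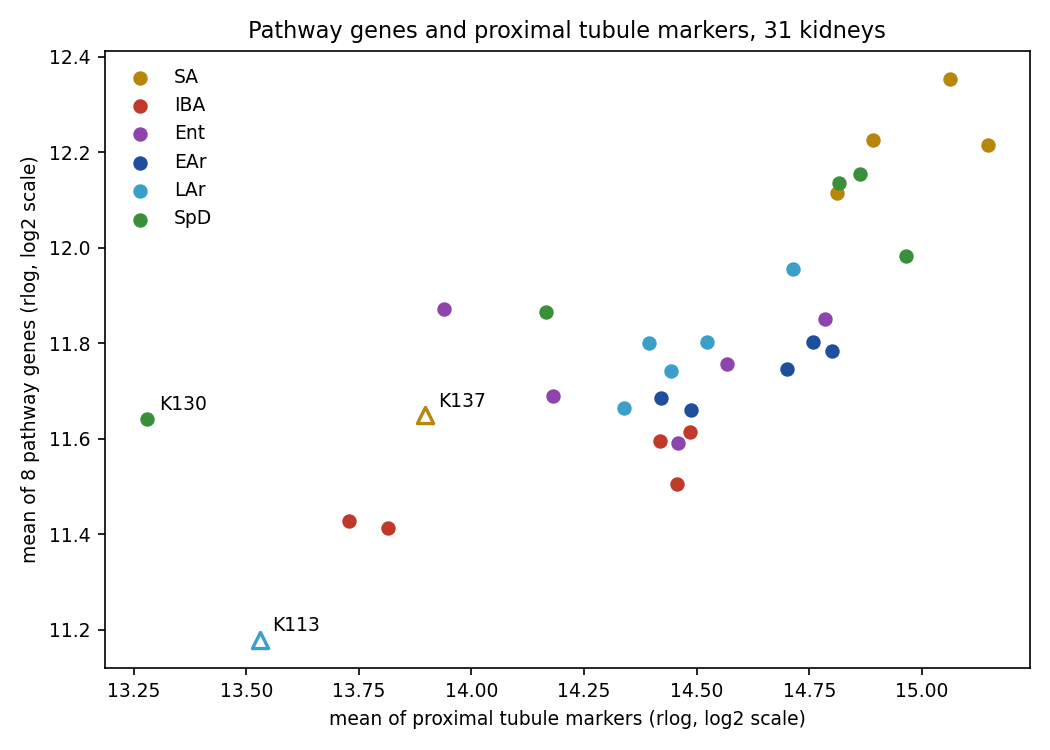
Mean of the 8 genes other than Bcat1 and Bcat2 (vertical axis) against the mean of 12 proximal tubule markers (horizontal axis), both rlog on the log2 scale, in 31 kidneys coloured by state. Triangles are K113 and K137. SA animals (12.11 to 12.35 on the vertical axis) sit at the upper right, and IBA animals range from 11.41 to 11.61. The 3 IBA animals whose marker level lies within that of the analysed EAr and LAr animals lie below them, and the other 2, at 13.73 and 13.81, have no such animal at their marker level.

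The remaining breakdown enzymes were examined as a list of 15, of which 14 were in the table. Across states 3 passed, beside the 9.34% of all genes. They were Acad8 (isobutyryl-CoA dehydrogenase of the valine chain, q = 1.4e-05), Hibch (the next valine enzyme but one, q = 1.7e-04) and Acat1 (the thiolase that ends the isoleucine chain and also handles ketone bodies, q = 3.3e-04). All 14 were lower in IBA than in SA, with a median of -0.43, and 5 passed, beside the 2.46% of all genes called lower: Acad8 (-0.75 ± 0.10), Acat1 (-0.71 ± 0.11), Pccb (-0.61 ± 0.11), Dld (-0.41 ± 0.07) and Hibch (-0.38 ± 0.07). Pccb is the partner of Pcca and Dld the E3 of BCKDH. Between SpD and IBA all 14 were higher in SpD and 2 passed (Acad8 at 0.50 and Hibch at 0.34), beside 0.832% of all genes. Between seasons 2 passed, both lower in hibernation as were 5.29% of all genes, Acad8 (-0.47 ± 0.05, q = 9.0e-07) and Acat1 (-0.35 ± 0.06, q = 9.6e-05). The part of tissue composition in the differences of this list was not tested.

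**Figure D4:**
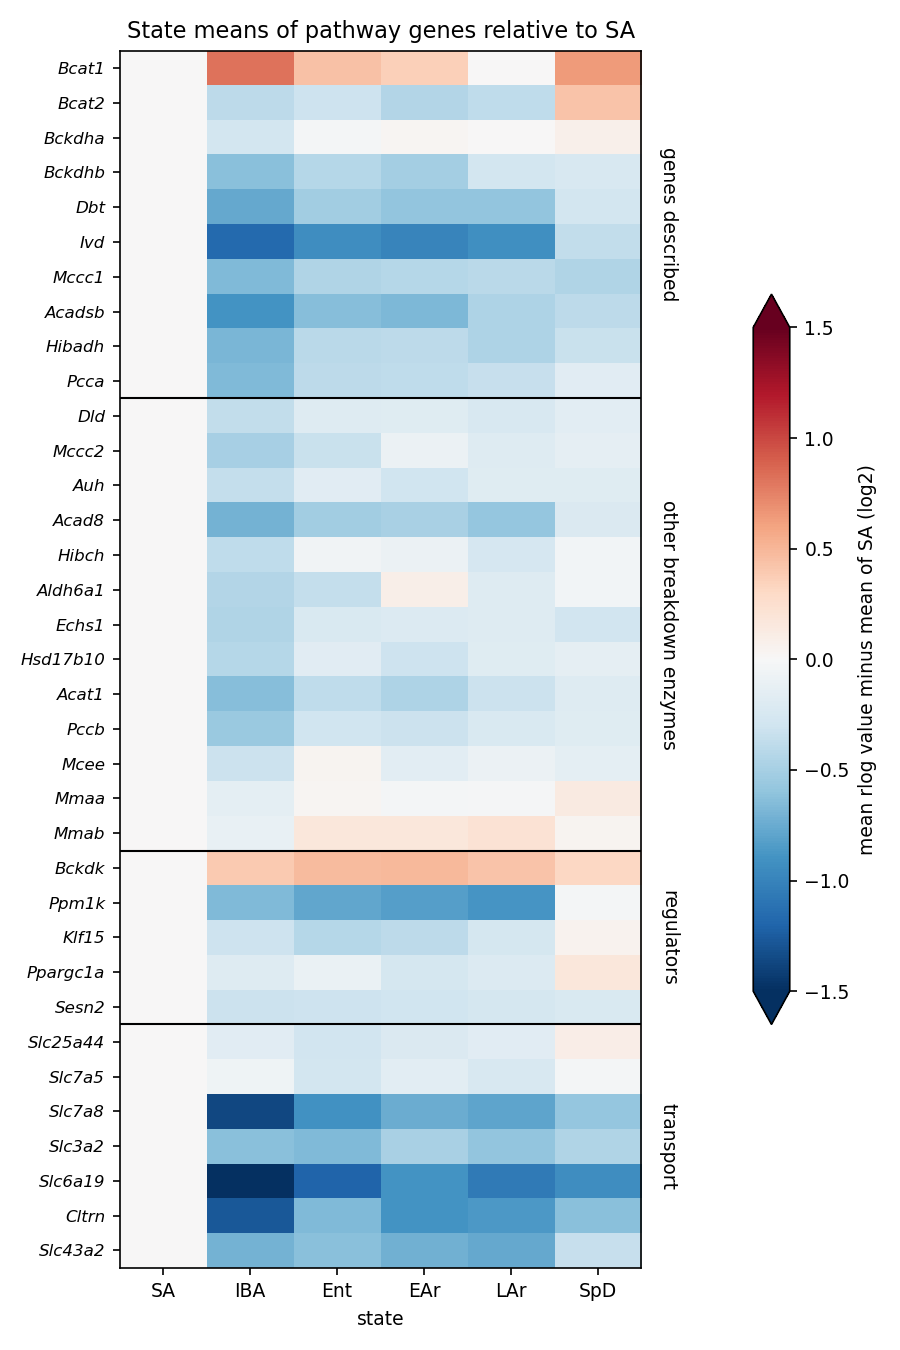
State means minus the mean of SA (colour, log2) for the 10 genes, 13 of the 14 other breakdown enzymes, 5 regulators and 7 carriers (rows) in 6 states (columns). Blue is lower than SA and red higher, and the scale is cut at the ends for Slc6a19 in IBA. The IBA column is the bluest for most enzymes, and Bckdk is red in every column but SA.

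BCKDH is switched off by a kinase, Bckdk, and switched on by a phosphatase, Ppm1k. Both genes passed across states (q = 2.1e-04 and 1.2e-04), 2 of the 5 regulators listed, beside 9.34% of all genes. Bckdk was at 10.26, 10.33, 10.39 and 10.43 in SA. It was at 10.62, 10.73, 10.77, 10.80 and 10.82 in IBA, and at 10.46, 10.59, 10.59, 10.73 and 10.97 in SpD, the last being K130. All analysed animals of the other 5 states were above all analysed SA animals for Bckdk. K137 (SA), which was left out, was at 10.61, within the SpD range. It was higher in IBA than in SA by 0.44 ± 0.08 (q = 8.1e-04) and in hibernation by 0.29 ± 0.05 (q = 4.6e-05), the opposite direction to most of the enzymes.

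Ppm1k was at 12.30, 12.34, 12.44 and 12.70 in SA and at 11.91, 12.13, 12.31, 12.74 and 12.97 in SpD. The hibernation groups were lower, at 11.59 to 12.20 in IBA, 11.33 to 12.03 in Ent, 11.46 to 11.93 in EAr and 11.33 to 11.74 in LAr. Each of them was below SA with no overlap, while 18.8% of all genes did not overlap between IBA and SA. The season difference was -0.77 ± 0.10 (q = 5.0e-06). Its IBA to SA difference, -0.58 ± 0.19, did not pass at 0.001 (q = 0.027). Of the other 3 regulators, Klf15, a transcription factor of amino acid breakdown, was lower in hibernation (-0.38 ± 0.08, q = 8.7e-04). Ppargc1a (-0.27, q = 0.0067) and Sesn2 (-0.19, q = 0.16) did not pass. Between seasons 2 regulators were thus lower and 1 higher, beside 5.29% and 4.43% of all genes. The part of tissue composition in the regulator differences was not tested.

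**Figure D5:**
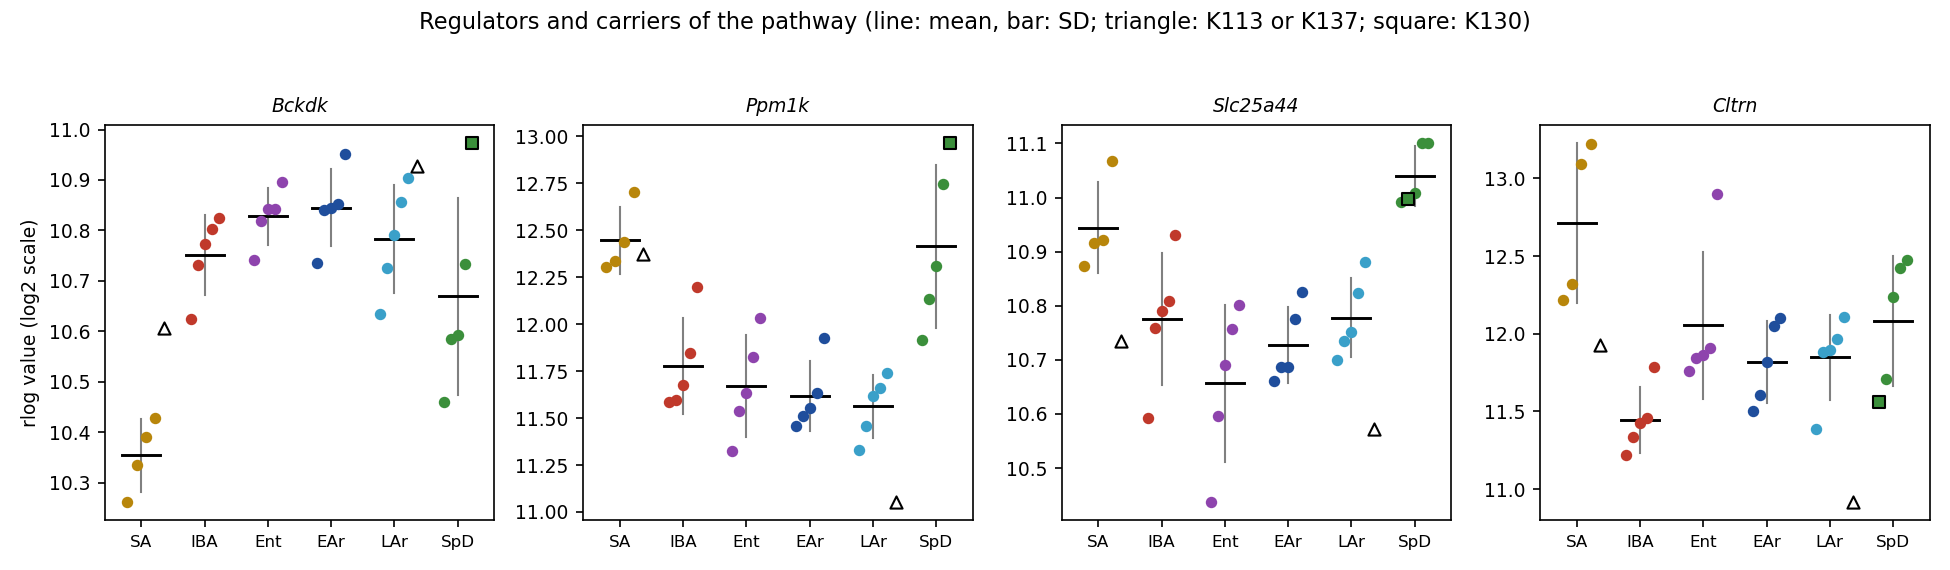
Levels (vertical axis, rlog on the log2 scale, own range per panel) of the BCKDH kinase gene Bckdk, the phosphatase gene Ppm1k, the mitochondrial carrier gene Slc25a44 and the transporter partner Cltrn in every kidney by state (horizontal axis). Points are animals, lines means, bars SD, triangles K113 and K137, and the square K130. Bckdk in SA (10.26 to 10.43) lies under all other analysed animals, and Ppm1k in SA lies over the 4 hibernation groups.

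Carriers of branched-chain amino acids were a list of 8, of which 7 were in the table, and 2 passed across states, beside the 9.34% of all genes. Slc25a44, which brings these amino acids into mitochondria (q = 4.6e-04), was at 10.99, 11.00, 11.01, 11.10 and 11.10 in SpD and from 10.44 to 10.93 over the 4 hibernation states. SpD was above all of these, while SA, from 10.87 to 11.07, overlapped IBA and LAr. The season difference of Slc25a44 was -0.26 ± 0.04 (q = 4.5e-05). Cltrn, a partner of the luminal neutral amino acid transporter Slc6a19, passed across states (q = 1.1e-04). It was lower in IBA than in SA by 1.45 (-1.45 ± 0.19, q = 2.3e-05). Slc7a8, a basolateral exchanger, was also lower in IBA (-1.58 ± 0.30, q = 8.8e-04), which made 2 of 7 beside 2.46% of all genes, and Slc6a19 itself had the largest difference of the list, -2.00 ± 0.42, without passing at 0.001 (q = 0.0016). All 7 were lower in hibernation, and 3 passed there (Slc25a44, Cltrn and Slc43a2), beside 5.29% of all genes. Slc7a5 had the highest q across states (0.55). Beside these carriers, all 12 proximal tubule markers were lower in IBA than in SA, with a median of -0.89. The part of tissue composition in the carrier differences was not tested.

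By likeness of level over the 29 animals, the genes outside the pathway that followed each enzyme most closely were as follows. Ivd was most like Abat (r = 0.95) and Ido2 (r = 0.95), and Dbt was most like CUNH11orf54 (r = 0.92) and Ghitm (r = 0.90). Hibadh was closest to Echdc2 (r = 0.96) and Tmbim6 (r = 0.93), Pcca to Dhtkd1 (r = 0.95) and Slc5a11 (r = 0.93), and Acadsb to Bphl (r = 0.91) and Pbld (r = 0.89). Abat and Ido2 are enzymes of GABA and tryptophan breakdown, and Dhtkd1 acts in lysine breakdown. Mccc1 was closest to MFSD4B (r = 0.93) and ADH5 (r = 0.93), Bckdhb to Pmpcb (r = 0.89) and Cryl1 (r = 0.89), and Bckdha to Smpd1 (r = 0.85) and Galnt14 (r = 0.83). The aminotransferases had other partners, Bcat2 with LOC106145208 (r = 0.94) and the lactate dehydrogenase gene Ldhb (r = 0.92), and Bcat1 with Esrp1 (r = 0.89) and Slco3a1 (r = 0.89).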

How the data were processed

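RNA-Seq data from kidneys of 31 ground squirrels were used as the authors deposited them, as log2 values per gene. The authors selected polyadenylated RNA, made stranded libraries with the TruSeq kit (experiment 1, 9 animals) or the Nugen kit (experiment 2, 22 animals), used cutadapt for trimming and HISAT2 to take out mitochondrial reads, quantified transcripts with Salmon on the HiC_Itri_2 assembly and summed them to genes with tximport. The authors dropped weakly expressed genes, made rlog values with DESeq2, and subtracted the batch effect with limma. Tool versions are not given in the sources used here. This correction equalizes experiments that hold different states, so experiment stayed a term in the model.

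Per the labels, each animal is 1 sample with a state and a sex, and replicate numbers carry no pairing. All states were fitted together with limma 3.58.1 (R 4.3.3) over all 12863 genes in 29 animals (state, sex and experiment, intensity trend, 21 residual degrees of freedom). The study's own test used counts, which are not analysed here. P-values were adjusted by Benjamini-Hochberg within each comparison. Comparisons that share a state share its animals. Cell type markers, pathway lists and the 10 genes were chosen with earlier results of these data known. Named genes were all 10, pathway genes past the threshold, and for each of the 10 the 2 genes outside the pathway lists with the highest Pearson's r. Proximal tubule markers were Slc27a2, Lrp2, Cubn, Slc34a1, Slc5a2, Slc5a12, Slc22a6, Slc22a8, Slc13a3, Aqp1, Hnf4a and Slc4a4. All 10 symbols matched the RefSeq table of another assembly (mIctTri1.hap1), and neither positions nor sequences are given. Some genes of the lists are counted but not reported here by name. The model was tested on simulated data. Plots were made with Python 3.11.15 and matplotlib 3.10.9.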

Additional observations from a re-analysis of the deposited data

Results flagged for a closer look

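In each state with 4 to 10 animals, the highest and lowest value of each of the 10 genes was tested with Dixon's ratio, which chance passes in about 1 of 20 groups. Among 60 groups of the 29 animals, 5 had such a value. K130 was high for Bcat1 in SpD at 9.06, with the others from 6.60 to 7.26, and low for Hibadh at 12.06, with the others from 12.56 to 12.65. K154 was high for Bckdha in EAr at 13.00 (others 12.76 to 12.81), K157 low for Bckdhb in EAr at 10.71 (others 10.92 to 11.00), and K139 high for Ivd in SA at 13.39 (others 13.04 to 13.09).

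In the 20 groups of SA and LAr that include K113 and K137, 7 values stood apart. K113 was high in LAr for Bcat1 at 10.24 and low for Mccc1 at 10.98, Acadsb at 11.57 and Pcca at 10.97. K137 was low in SA for Mccc1 at 11.25 and Pcca at 11.53. K111 was low for Bcat2 in LAr at 10.18, with the others from 10.49 to 10.65.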

How the results depend on the processing

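No counts were used, so precision rests on the variation among animals, and SA, EAr and LAr exist with 1 kit. The main counts were 7 genes across states, 6 between seasons, 7 for IBA against SA, 2 for SpD against IBA and 0 for SA against SpD, Ent against IBA, EAr against Ent, LAr against EAr, IBA against LAr, and sex. With all 31 animals, 3 passed across states, 1 for IBA against SA and 0 for SpD against IBA. In experiment 2 only, the counts were 4 across states, 3 between seasons, 3 for IBA against SA, 1 for SA against SpD and 0 for SpD against IBA. Without a term for experiment 4 passed across states, and 0 did over the 4 hibernation states, an alternative chosen after seeing the data. With the proximal tubule term, 2 passed for IBA against SA and 4 for SpD against IBA. Fitting only the 2 groups compared, which leaves fewer animals, gave 1 for IBA against SA and 0 for SpD against IBA. Animal weights gave 1 for Ent against IBA and 4 for SpD against IBA. At q under 0.01 the counts were 1 for SA against SpD, 2 for IBA against LAr and 6 for SpD against IBA, and at q under 0.05 they were 5, 5 and 8, with 2 for Ent against IBA.

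With each animal left out in turn, 3 to 8 genes passed across states, 6 to 8 between seasons, 4 to 7 for IBA against SA and 1 to 3 for SpD against IBA, and 0 in every other comparison. Across states, 3 passed without K104 (IBA), K138 or K139 (both SA) and 4 without K140 (SA). For IBA against SA, 4 passed without K104. For SpD against IBA, 1 passed without K1 or K7 (IBA) or K3 or K6 (SpD). No difference of the 10 genes with q under 0.05 changed sign in any of these settings, while 74 of 1796 values with a larger q did. The cause was not tested. No paired analysis was possible because the replicate numbers only name the animals.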

Other observations

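Other mitochondrial genes were read beside the pathway as a reference list of 8, all in the table. Across the 6 states 1 passed at q under 0.001 (Hspd1, a mitochondrial chaperone, q = 5.6e-04), beside 9.34% of all genes. At q under 0.05, 4 passed, beside 46.1% of all genes. Between IBA and SA, 7 of the 8 were lower in IBA with a median of -0.23. Hspd1 passed (-0.51 ± 0.09, q = 2.7e-04), beside 2.46% of all genes called lower. At q under 0.05, 4 were lower in IBA, against 12.5% of all genes. Cs, citrate synthase, was at -0.16 ± 0.07 (q = 0.10). When the hibernation states were set against the active states, 5 of the 8 were lower at q under 0.05, against 16.8% of all genes. The difference between this list and the 10 breakdown genes was not tested.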
